A study of Homo sapiens with 12 samples.

Results

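The rows examined here were those of the SRSF, HNRNP, SF3A/SF3B and SNRP splicing factor genes, taken by symbol from tables of gene expression in the human cutaneous melanoma line WM1366. A row was a member when its symbol began with SRSF, SF3A or SF3B followed by a digit, or with HNRNP or SNRP. The rule found 58 of the 12931 rows in each table, namely 11 SRSF, 25 HNRNP, 9 SF3A/SF3B and 13 SNRP rows. Of the 58, 53 were protein genes, 4 were rows named as pseudogenes (HNRNPA1P48, HNRNPCP1, HNRNPCP2 and SNRPGP10) and 1 was the antisense row HNRNPU-AS1. All 58 had reads and entered the tests.

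There were 12 RNA sequencing libraries in 3 groups of 4. R1 and R2 were named as combination groups, on a diet holding a MEK inhibitor and a CDK4/6 inhibitor, and the control group was on a control diet. The series describes progressing WM1366 xenograft tumours, whereas the sample labels describe cells grown in medium. The treatment text names palbociclib (0.1 uM), a CDK4/6 inhibitor, and PD0325901 (1 nM), a MEK inhibitor, for all 12 libraries, control libraries included. The labels state neither what separates R1 from R2 nor whether the replicates of a group came from separate tumours or cultures, so p-values measure only the spread between these libraries. All 3 groups derive from 1 cell line, and R1 and R2 are therefore a model of WM1366 alone.

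The spliceosome removes introns from pre-mRNA and is built from small nuclear ribonucleoproteins (snRNPs), each a small nuclear RNA with a ring of Sm proteins and proteins of its own. SNRP genes encode the Sm ring and proteins particular to the U1 snRNP, which recognises the 5′ splice site, and the U2 snRNP, which binds the branch point. SF3A and SF3B genes encode complexes of the U2 snRNP that clamp it onto the branch point. SRSF genes encode serine- and arginine-rich proteins that bind exons and usually promote their inclusion, and HNRNP genes encode RNA-binding proteins that coat nascent transcripts and often repress exons or act in RNA export, stability and translation.

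Values are the authors' read counts scaled for library size, called normalised read counts below, and they are not scaled for gene length, so levels are compared between groups and not between genes. The libraries held 20003891 to 39009384 reads in the listed genes. Group differences were tested with limma on log2(value + 0.5) over all 12931 rows with Benjamini-Hochberg adjustment, and a gene was called risen or fallen at an adjusted p under 0.05. Ratios of means are given as folds, and log2 fold changes are given with their standard error (SE). Mitochondrial genome transcripts took 2.17 to 3.28% of reads in R1, 4.02 to 9.63% in R2 and 5.86 to 10.9% in the control group, and cytosolic ribosomal protein genes took 9.54 to 11.7%, 5.57 to 6.76% and 5.61 to 6.34% in the same groups. Of 10 melanoma markers listed, 4 were measured (MITF, PMEL, AXL and PRAME). Their summed value was 773 to 1118 in R1, 1400 to 1617 in R2 and 1543 to 1724 in the control group, most of it AXL. Mean AXL (825 and 1584) and MITF (23.5 and 50.3) were lower in R1 than in the control group. Mean PMEL (27.1 and 5.32) and PRAME (46.2 and 16.9) were higher in R1. The other 6, among them MLANA, TYR and SOX10, had no row in the tables used here. Of 10 endothelial markers 4 were measured, summing to 375 to 499 in R1, 126 to 157 in R2 and 133 to 172 in the control group, most of it TIE1. Of 10 fibroblast and pericyte markers 5 were measured, summing to 513 to 668 in R1, 741 to 826 in R2 and 626 to 740.2 in the control group, most of it THY1 and COL1A1. Of 15 leukocyte and macrophage markers only CSF1R was measured, at 1.39 to 6.19 in R1, 0.349 to 0.688 in R2 and 1.12 to 3.18 in the control group. The part of these differences in the results below was not tested, and reads of mouse host cells were not separated here.

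R1 differed from the control group in 32 of the 58 members, of which 9 rose and 23 fell. Over all 12931 rows 43.8% were called, 22.4% risen and 21.4% fallen in R1, so the share of members that fell, 39.7%, was above the background and the share that rose, 15.5%, was below it. The median log2 fold change was −0.13 over the members and 0.01 over all rows. R2 differed from the control group in 7 of the 58, of which 3 rose and 4 fell, against a background of 28.4% called, 13.6% risen and 14.8% fallen, and its median over the members was 0.07. Between R1 and R2, 10 members were higher in R1 and 22 were lower, against a background of 46.8% called, 24.0% higher and 22.8% lower. Every R1 library lay above every control library for 5 members and below for 19, compared with 20.8% and 19.0% of all rows. R1 lay wholly above R2 for 9 members and wholly below it for 20, compared with 20.3% and 19.1% of all rows. R2 lay wholly above the control group for 4 members and wholly below it for 6, compared with 18.0% and 16.8% of all rows. R1 enters both comparisons in which most members moved, with the same R1 libraries. In R1, 19 members fell and 6 rose against both the control group and R2. Only HNRNPAB was called in both comparisons with the control group, which share the same control libraries. Another 17 members were called in none of the 3 comparisons. These overlaps were not counted over all rows, so no background share stands beside them. In bulk RNA, fewer cells of a type and less RNA per cell cannot be told apart.

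**Figure D1:**
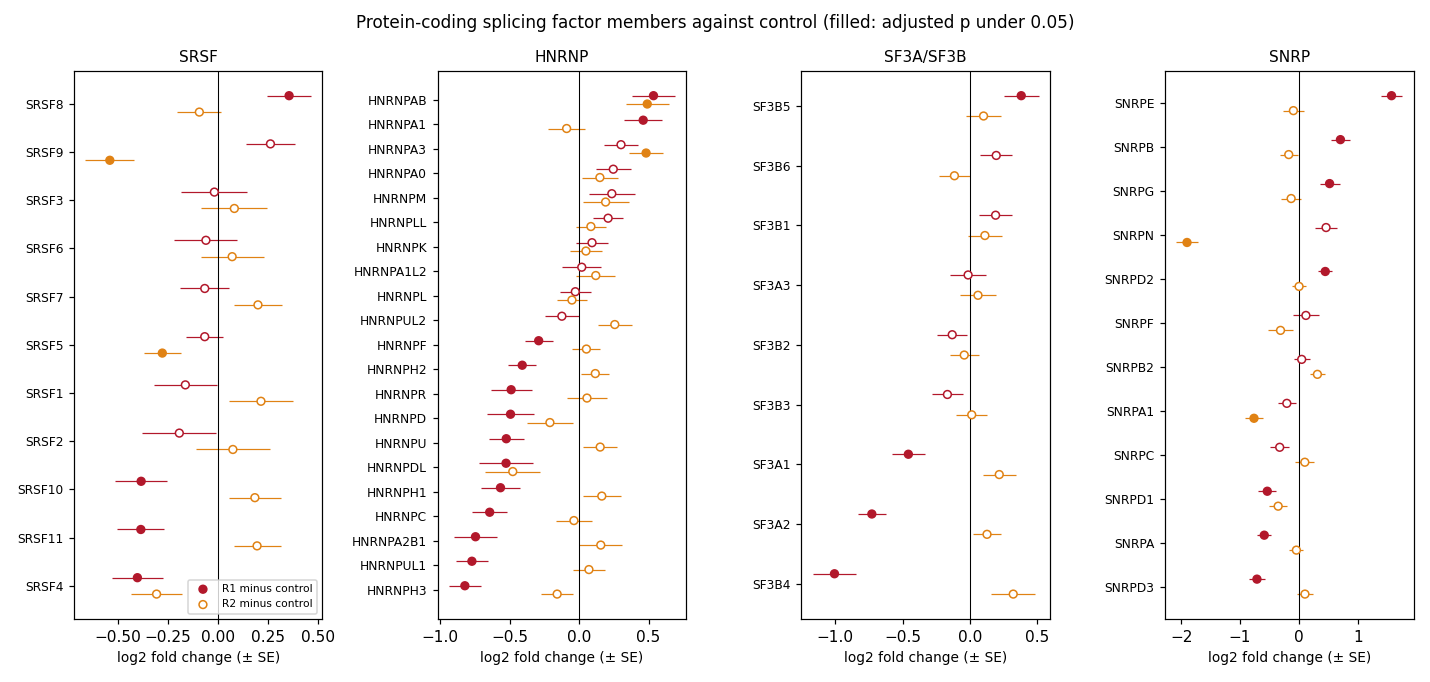
Log2 fold changes (± SE) of the 53 protein genes for R1 minus control and R2 minus control, by family, on the log2(value + 0.5) scale; filled points had an adjusted p under 0.05. HNRNP points for R1 lie mostly left of 0, SNRP points for R1 lie on both sides, and the filled R2 points are those of SNRPN, SNRPA1, SRSF9, HNRNPAB, HNRNPA3 and SRSF5.

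R1 replicate 2 was the lowest of the 4 R1 libraries for 48 of the 58 members, and R1 replicate 3 was the highest for 40. Without R1 replicate 2, 15 members rose and 20 fell in R1 against the control group, so the count of risen members rests in part on that library. Over all 12931 rows the same fit called 3020 risen and 2857 fallen. The risen share of members was then slightly above that of all rows, and not below it, while the fallen share was still above. The extra rises among members were mostly HNRNP genes, with 7 risen and 11 fallen of 25 when replicate 2 was left out, against 3 and 13 with it.

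Among the 13 SNRP rows, R1 moved in both directions, with 4 risen and 4 fallen against the control group. Each share was 30.8%, compared with 22.4% risen and 21.4% fallen over all rows, and the median log2 fold change was 0.05. The genes of the Sm ring, the shared core of the spliceosomal snRNPs, divided between the directions. SNRPE, which encodes the Sm protein E, had 84.7, 54.5, 107 and 94.7 normalised reads in the R1 libraries, 24.5, 20.5, 31.2 and 27.8 in the R2 libraries and 29.3, 28.2, 28.1 and 24.5 in the control libraries. Every R1 library lay above every R2 and control library, and R2 and control libraries overlapped. SNRPE was 3.10-fold higher in R1 than in the control group (log2 fold change 1.58, SE 0.18, adjusted p = 1.19e-05) and 3.28-fold higher in R1 than in R2 (1.67, SE 0.18, adjusted p = 7.28e-06), which made it the largest rise of any member in R1 against the control group.

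SNRPB, which encodes the Sm proteins B and B′, had 154, 128, 224 and 173 normalised reads in R1, 97.0, 73.9, 111 and 83.5 in R2 and 109, 102, 101 and 94.8 in the control group. Its R1 libraries were all above the others (R1 minus control 0.71, SE 0.16, adjusted p = 0.00238). SNRPG, which encodes the Sm protein G, had 66.0, 50.9, 104 and 78.8 in R1, 46.1, 39.3, 49.5 and 49.3 in R2 and 49.9, 47.9, 54.6 and 49.1 in the control group. SNRPG rose in R1 against the control group (0.52, SE 0.17, adjusted p = 0.0217), although its lowest R1 library lay within the control range. That call was lost without R1 replicate 3 (adjusted p = 0.0580), R1 replicate 4 (adjusted p = 0.0572) or control replicate 2 (adjusted p = 0.0532). SNRPD2, which encodes the Sm protein D2, averaged 336 ± 42.3 in R1, 246 ± 16.5 in R2 and 246 ± 29.3 in the control group (SD, n = 4 each) and rose in R1 (0.45, SE 0.11, adjusted p = 0.00593).

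The genes for the Sm proteins D1 and D3 went the other way. SNRPD3 had 119, 82.4, 139 and 109 normalised reads in R1, 195, 187, 195 and 202 in R2 and 203, 183, 172 and 169 in the control group. Every R1 library was below every other library (R1 minus control −0.71, SE 0.13, adjusted p = 0.000629; R1 minus R2 −0.82, SE 0.13, adjusted p = 0.000202). SNRPD1 had 101, 68.3, 101 and 78.7 in R1, 87.9, 76.5, 109.7 and 124 in R2 and 123, 124, 123 and 129.8 in the control group. It fell in R1 against the control group (−0.54, SE 0.15, adjusted p = 0.0117), while the difference between R2 and the control group, −0.35, had an adjusted p of 0.104 and was called only without R2 replicate 4 (−0.47, adjusted p = 0.0410). SNRPF, for the Sm protein F, averaged 81.8 ± 29.4 in R1, 58.5 ± 12.5 in R2 and 71.7 ± 4.10 in the control group (SD, n = 4 each) and was not called in any comparison. Its difference between R1 and R2, 0.43, was 0.66 and called (adjusted p = 0.00678) without R1 replicate 2. Of the 7 Sm ring genes other than SNRPN, 4 therefore rose and 2 fell in R1 against the control group. For R2 against the control group limma and edgeR each called 0 of the 7, and 1, SNRPD1, was lower at an unadjusted p under 0.05.

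Of the proteins particular to the U1 snRNP, SNRPA encodes protein A, which binds a stem loop of U1 RNA. SNRPA had 93.9, 85.7, 125 and 91.2 normalised reads in R1, 138, 138, 151 and 146 in R2 and 134, 138, 167 and 152 in the control group. All R1 libraries were below all others (R1 minus control −0.59, SE 0.12, adjusted p = 0.00115). SNRPC, which encodes protein C of the U1 snRNP and stabilises pairing of U1 RNA with the 5′ splice site, had 197, 151, 282 and 212 in R1, 273, 241, 278 and 319 in R2 and 299, 276, 247 and 216 in the control group. SNRPC was lower in R1 than in R2 (−0.43, SE 0.16, adjusted p = 0.0455), with overlapping groups, and that call was lost in 8 of the 12 fits that left out 1 library, with an adjusted p of up to 0.127 without R1 replicate 2, and with the replicate number as a block (adjusted p = 0.0531). Against the control group SNRPC was called lower in R1 only without R1 replicate 3 (−0.48, adjusted p = 0.0181).

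Of the U2 snRNP proteins, SNRPA1 encodes protein A′, which binds U2 RNA together with protein B″, the product of SNRPB2. SNRPA1 had 55.3, 48.2, 89.8 and 71.0 normalised reads in R1, 43.6, 39.3, 45.2 and 45.9 in R2 and 75.1, 71.9, 74.6 and 75.0 in the control group. Every R2 library was below every control and R1 library, and SNRPA1 was 1.70-fold lower in R2 than in the control group (log2 fold change −0.76, SE 0.15, adjusted p = 0.00181). Against the control group R1 spread to both sides and was not called (−0.21, adjusted p = 0.291), except without R1 replicate 3 (−0.37, adjusted p = 0.0263). SNRPB2 averaged 35.2 ± 5.82 in R1, 42.4 ± 5.92 in R2 and 33.8 ± 2.51 in the control group (SD, n = 4 each) and was not called. Without R2 replicate 2 it was called higher in R2 than in the control group (0.40, adjusted p = 0.0435) and lower in R1 than in R2 (−0.35, adjusted p = 0.0490), the second also without R1 replicate 3 (−0.36, adjusted p = 0.0419).

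**Figure D2:**
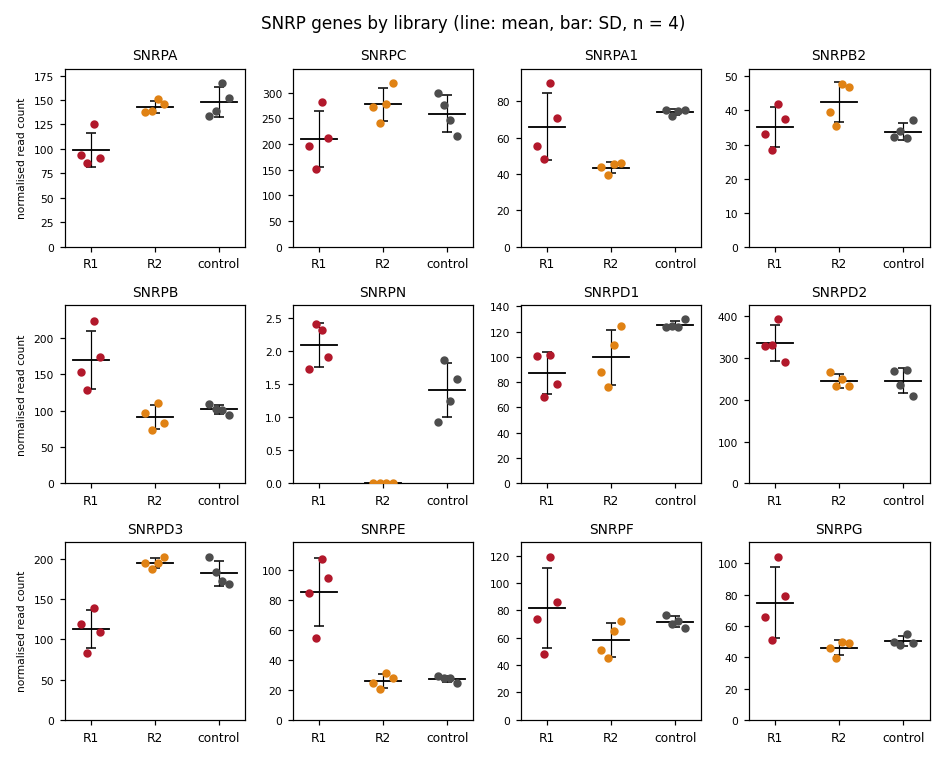
Normalised read counts of the 12 SNRP protein genes in each library of R1, R2 and control, with the mean as a line and the SD as a bar (n = 4 each). SNRPE and SNRPB stand higher in R1, SNRPA and SNRPD3 stand lower in R1, SNRPA1 stands lower in R2, and SNRPN is at 0 in all 4 R2 libraries.

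SNRPN, which encodes an Sm protein called SmN that is closely related to SmB, lies on the forward strand of chromosome 15 (GRCh38, GENCODE v29 gene at 24823637 to 24978723). It is an imprinted gene transcribed from the paternal copy, in 1 transcription unit with SNURF, and its transcription runs on into the long non-coding host gene SNHG14. SNRPN had few reads in every group. The R1 libraries held 71, 55, 61 and 62 reads, the R2 libraries 0, 0, 0 and 0, and the control libraries 23, 48, 24 and 30, or a mean of 2.09 ± 0.327 normalised reads in R1, 0 in R2 and 1.40 ± 0.409 in the control group (SD, n = 4 each). With the R2 group set to 3 reads over its 4 libraries, SNRPN was at least 51.4-fold lower in R2 than in the control group and at least 74.2-fold lower in R2 than in R1. The adjusted p was 2.95e-06 for R2 minus control and 2.40e-07 for R1 minus R2, and the fitted log2 fold changes (−1.90 and 2.37) depend on the added 0.5. R1 and control overlapped (0.46, SE 0.18, adjusted p = 0.0507), and that difference was called without R1 replicate 1, without control replicate 2, under both forms of total scaling, with 2 added in place of 0.5 and without the mean-variance trend.

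Part of a RefSeq window before 1 of the 4 listed starts of SNRPN is shown because the R2 libraries had no read from the gene. The part is the one farther from that start. It covers the 190 bases at chr15:24954737-24954926 (GRCh38.p14, forward strand) that lie outside the gene's exons, with CpG dinucleotides in capitals. It holds 6 CpG, and the whole window of 250 bases before that start holds 12. No methylation was measured in the files used here.
SNRPN upstream window: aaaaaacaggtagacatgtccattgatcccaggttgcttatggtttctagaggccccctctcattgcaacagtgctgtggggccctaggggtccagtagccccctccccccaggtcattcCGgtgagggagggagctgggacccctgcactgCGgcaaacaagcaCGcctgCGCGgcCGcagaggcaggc

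The tested genes within 2 Mb of the SNRPN start were 7, and this window was chosen after the SNRPN values were seen. SNHG14 had 1423, 686, 646 and 1133 reads in the R1 libraries, 1, 1, 0 and 1 in the R2 libraries and 806, 887, 492 and 554 in the control libraries. The 3 other transcripts of the same stretch thus shared the pattern, since PWAR5 held 324 reads in R1, 0 in R2 and 310 in the control group, and PWAR6 held 236, 2 and 147. SNHG14 fell by 5.86 on the log2 scale in R2 against the control group (SE 0.14, adjusted p = 1.89e-12). UBE3A, a ubiquitin ligase gene on the opposite strand that overlaps SNHG14, averaged 80.1 in R1, 71.9 in R2 and 57.5 in the control group and was not called in R2 (0.32, adjusted p = 0.0999). The 3 genes farthest away, NIPA2, CYFIP1 and TUBGCP5, rose in R2 against the control group by 0.73, 0.62 and 0.50. The counting was not stated to use strand, so reads of SNRPN, SNURF, SNHG14 and UBE3A that overlap cannot be assigned with certainty.

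**Figure D3:**
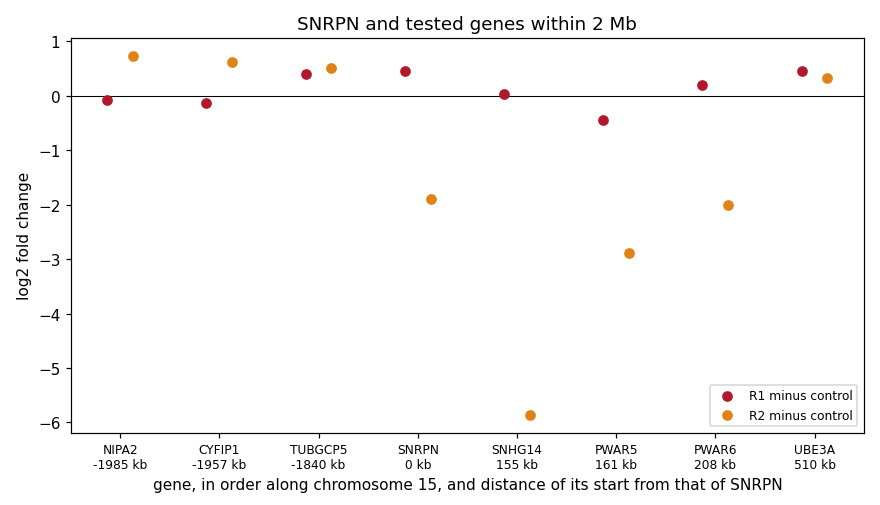
Log2 fold changes of SNRPN and the 7 tested genes within 2 Mb of its start, for R1 minus control and R2 minus control, in their order along chromosome 15 with the distance of each start from that of SNRPN. SNRPN, SNHG14, PWAR5 and PWAR6 lie far below 0 for R2, while their R1 values and the R2 values of the other 4 genes lie near or above 0.

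SNRPA1 is also on chromosome 15, near its other end (101281510 to 101295282). Over the whole chromosome, 289 of 371 tested genes (77.9%) fell in R2 against the control group, with a median log2 fold change of −0.76, the value of SNRPA1 itself. This count was also made after the values were seen. In R1 against the control group 132 of the 371 (35.6%) fell and 45 (12.1%) rose, and between R1 and R2 234 (63.1%) were higher in R1. Together with the lists of other splicing genes described below, 6 splicing genes lay on chromosome 15. These were SNRPN, SNRPA1, AQR, PDCD7, CLK3 and SNUPN, and all 6 fell in R2 against the control group, compared with 9 of the 208 splicing genes on other chromosomes or unplaced (4.33%). SNUPN, which encodes the import adaptor that carries capped snRNPs into the nucleus, averaged 10.2 ± 0.458 in R1, 5.71 ± 0.959 in R2 and 13 ± 0.692 in the control group (SD, n = 4 each; R2 minus control −1.13, SE 0.13, adjusted p = 1.58e-05). AQR, an RNA helicase of the intron-binding complex, averaged 60.5 ± 9.96 in R1, 46.1 ± 1.63 in R2 and 88.0 ± 6.09 in the control group (R2 minus control −0.92, SE 0.11, adjusted p = 3.18e-05). What lowers chromosome 15 transcripts in R2 was not tested.

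In the SF3A/SF3B family, 3 of 9 genes fell (33.3%) and 1 rose (11.1%) in R1 against the control group. Over all rows 21.4% fell and 22.4% rose. For R2 against the control group limma and edgeR called 0 of 9, with 0 at an unadjusted p under 0.05, and log2 fold changes ran from −0.12 to 0.32. SF3B4 encodes the SF3B subunit that contacts pre-mRNA upstream of the branch point. It had 329.8, 233, 350.1 and 324 normalised reads in R1, 756, 641, 773 and 918 in R2 and 738, 689, 562 and 496 in the control group. Every R1 library was below every other library, and SF3B4 was 2.01-fold lower in R1 than in the control group (log2 fold change −1.005, SE 0.16, adjusted p = 0.000200) and 2.50-fold lower in R1 than in R2 (−1.32, SE 0.16, adjusted p = 1.91e-05). These were the largest falls of any member in R1 against the control group and against R2.

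The SF3A complex has 3 subunits. SF3A2, a zinc finger subunit, had 121, 122, 148 and 124 normalised reads in R1, 234, 209, 253 and 234 in R2 and 205, 213, 243 and 193 in the control group. SF3A1, which carries a ubiquitin-like domain and binds U1 RNA as well, had 178, 144, 192 and 184 in R1, 259, 248, 285 and 323 in R2 and 271, 251, 234 and 203 in the control group. For both genes all R1 libraries lay below all others. SF3A2 fell in R1 against the control group (−0.73, SE 0.10, adjusted p = 7.80e-05), and so did SF3A1 (−0.46, SE 0.12, adjusted p = 0.00817). SF3A3, the third subunit, averaged 184 ± 30.2 in R1, 193 ± 19.6 in R2 and 185 ± 24.8 in the control group (SD, n = 4 each), and its adjusted p was 0.942 in R1 and 0.784 in R2 against the control group.

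SF3B1, the large subunit that holds the branch point adenosine and is recurrently mutated in uveal melanoma and blood cancers, had 329, 253, 334 and 399.6 normalised reads in R1, 291, 292, 317 and 331 in R2 and 315, 281, 267 and 278 in the control group. The groups overlapped and SF3B1 was not called in R1 against the control group (0.19, SE 0.12, adjusted p = 0.232), except without R1 replicate 2 (0.31, adjusted p = 0.0246). The small subunit gene SF3B5 had 119, 112, 176 and 127 in R1, 113, 107, 112 and 100.01 in R2 and 103, 106, 106 and 89.0 in the control group. SF3B5 rose in R1 against the control group (0.38, SE 0.13, adjusted p = 0.0266), and the call was lost without R1 replicate 3 (0.24, adjusted p = 0.0566) or control replicate 4 (adjusted p = 0.0843). SF3B5 was called higher in R1 than in R2 without R1 replicate 2 (0.36, adjusted p = 0.0327) and under total scaling. SF3B6, whose product contacts the branch point adenosine, had 139, 132, 197 and 158 in R1, 117, 115, 134 and 133 in R2 and 127, 136, 139 and 139 in the control group. Its higher level in R1 than in R2 (0.31, SE 0.12, adjusted p = 0.0433) was lost in 9 of 12 fits that left out 1 library, with a difference of 0.19 and an adjusted p of 0.115 without R1 replicate 3. SF3B2 and SF3B3, a scaffold pair of subunits, were not called in any comparison, with means of 396 ± 51.0 and 214 ± 31.2 in R1, 420.0 ± 28.8 and 241 ± 17.8 in R2 and 433 ± 34.5 and 239 ± 17.3 in the control group (SD, n = 4 each).

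**Figure D4:**
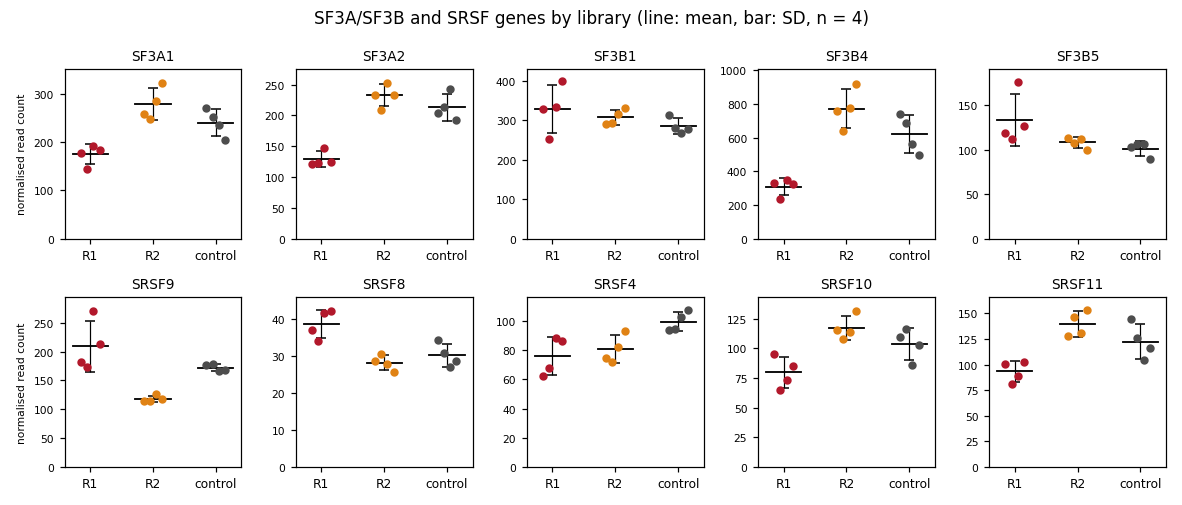
Normalised read counts of 5 SF3A/SF3B genes and 5 SRSF genes in each library of R1, R2 and control, with the mean as a line and the SD as a bar (n = 4 each). SF3B4, SF3A2 and SF3A1 stand lower in all R1 libraries, SRSF9 stands lower in all R2 libraries, and SF3B1 overlaps between the groups.

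In the SRSF family 1 of 11 genes rose (9.09%) and 3 fell (27.3%) in R1 against the control group. The shares over all rows were 22.4% and 21.4%. In R2 against the control group 2 fell (18.2%), compared with 14.8% of all rows. The best known members, which bind exonic splicing enhancers, were not called. SRSF1, a founding SR protein with oncogenic activity in model systems, had 209, 139, 209 and 224 normalised reads in R1, 266, 217, 255 and 265 in R2 and 254, 247, 175 and 196 in the control group. SRSF2, recurrently mutated in myeloid neoplasms, had 321, 197, 405 and 364 in R1, 367, 376, 375 and 381 in R2 and 424, 394, 300.0 and 319.6 in the control group. SRSF3, the smallest SR protein, had 289, 172, 319 and 295 in R1, 297, 267, 272 and 285 in R2 and 292, 301, 233 and 240.2 in the control group. All 3 genes overlapped between R1 and control, R1 replicate 2 was their lowest library, and the adjusted p against the control group was 0.424, 0.416 and 0.938 in R1 and 0.339, 0.802 and 0.753 in R2. SRSF1 was called lower in R1 than in R2 without R1 replicate 4 (−0.45, adjusted p = 0.0460) or R2 replicate 2 (−0.45, adjusted p = 0.0462).

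SRSF9 separated R2 from the rest. It encodes an SR protein related to SRSF1 and had 182, 173, 271 and 213 normalised reads in R1, 114, 115, 126 and 118 in R2 and 176, 179, 167 and 167 in the control group. Every R2 library was below every other library. SRSF9 was 1.46-fold lower in R2 than in the control group (log2 fold change −0.54, SE 0.12, adjusted p = 0.00434) and 1.77-fold higher in R1 than in R2 (0.80, SE 0.12, adjusted p = 0.000123). Against the control group R1 was not called (0.26, adjusted p = 0.0970), except without R1 replicate 2 (0.35, adjusted p = 0.0256) or under either form of total scaling. Of the 24 tested genes within 1 Mb of SRSF9 on chromosome 12, 10 also fell and 0 rose in R2 against the control group. Over all rows 14.8% fell and 13.6% rose. Of the same 24, 19 were higher and 0 lower in R1 than in R2, compared with 24.0% and 22.8% of all rows.

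The other SRSF calls were small. SRSF5, described in rat liver cells as a gene induced by insulin, had 141, 151, 166 and 154 normalised reads in R1, 119, 151, 129.6 and 129 in R2 and 154, 157, 160.4 and 168 in the control group. It fell in R2 against the control group (−0.28, SE 0.09, adjusted p = 0.0384), a call lost in 7 of 12 fits that left out 1 library, with an adjusted p of up to 0.121 without R2 replicate 1. Its difference between R1 and R2 was called without R2 replicate 2 (0.28, adjusted p = 0.0258) and under either form of total scaling. SRSF4, a large SR protein, had 62.2, 67.5, 88.2 and 86.0 in R1, 74.6, 72.2, 82.5 and 93.5 in R2 and 93.9, 94.2, 103 and 108 in the control group. All R1 and all R2 libraries of SRSF4 were below the control libraries, and it was called in R1 (−0.40, SE 0.13, adjusted p = 0.0184), though not without R1 replicate 1 (adjusted p = 0.0618) or control replicate 4 (adjusted p = 0.0548), and not in R2 (−0.31, adjusted p = 0.0841), where it was called with only R2 and control libraries in the fit (adjusted p = 0.0325). Whether the fall of SRSF4 differed between the groups was tested as R1 minus R2 and not called (−0.10, adjusted p = 0.558).

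SRSF10, a splicing repressor when dephosphorylated, had 95.1, 64.8, 73.3 and 85.4 normalised reads in R1, 116, 108, 114 and 132 in R2 and 109.8, 117, 85.7 and 103 in the control group. SRSF11, an SR-related protein, had 100.2, 81.3, 89.0 and 103 in R1, 128, 147, 131 and 153 in R2 and 144, 126, 104 and 116 in the control group. Both fell in R1 against the control group, SRSF10 by 0.38 (SE 0.13, adjusted p = 0.0271) and SRSF11 by 0.39 (SE 0.12, adjusted p = 0.0157), and R1 lay below every R2 library for both (R1 minus R2 −0.57 and −0.58). The SRSF10 call was lost in 5 of 12 fits that left out 1 library (adjusted p of up to 0.0856, without control replicate 2), and the SRSF11 call without control replicate 1 (adjusted p = 0.0575). SRSF8, a close relative of SRSF2, had 37.1, 34.0, 41.6 and 42.1 in R1, 28.6, 30.5, 27.7 and 25.8 in R2 and 34.4, 30.7, 26.9 and 28.7 in the control group, and rose in R1 (0.35, SE 0.11, adjusted p = 0.0177), which did not hold without R1 replicate 4 (adjusted p = 0.0540) or control replicate 3 (adjusted p = 0.0570). SRSF6 and SRSF7 were not called in any comparison, and SRSF7 was lower in R1 than in R2 only without R1 replicate 3 (−0.33, adjusted p = 0.0452).

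The HNRNP family carried most of the falls in R1. Against the control group 13 of 25 rows fell and 3 rose in R1 (median log2 fold change −0.29), whereas 3 rose and 0 fell in R2, with a median of 0.12. For that 0, limma had 1 row lower at an unadjusted p under 0.05, and edgeR called 0. HNRNPDL was called fallen in R2 without R1 replicate 2 (adjusted p = 0.00519) and with only R2 and control libraries in the fit (adjusted p = 0.00161). Between R1 and R2 13 rows (52.0%) were lower and 1 (4.0%) was higher in R1, compared with 22.8% and 24.0% of all rows. HNRNPA2B1, which encodes A2 and B1, proteins of the hnRNP core particle that also act in RNA sorting, had 983, 607, 973 and 944 normalised reads in R1, 1559, 1405, 1687 and 1812 in R2 and 1509, 1520.2, 1362 and 1389 in the control group. All R1 libraries lay below all others, and HNRNPA2B1 was 1.65-fold lower in R1 than in the control group (−0.75, SE 0.15, adjusted p = 0.00145). Replicate 2 stood apart from the other 3 R1 libraries, and without it the fall was 0.58 on the log2 scale (adjusted p = 0.00112).

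HNRNPA1, the close relative of HNRNPA2B1 that represses many exons, moved the other way. It had 1128, 856, 1382 and 1275 normalised reads in R1, 832, 773, 724 and 793 in R2 and 829.6, 803, 838 and 848 in the control group. Every R1 library was above every other library (R1 minus control 0.46, SE 0.13, adjusted p = 0.0126; R1 minus R2 0.55, SE 0.13, adjusted p = 0.00412). HNRNPA3, of the same A/B group, had 422, 288, 398 and 441 in R1, 445, 422, 407 and 461 in R2 and 316, 314, 286 and 325 in the control group. HNRNPA3 rose in R2 against the control group (0.48, SE 0.12, adjusted p = 0.00981) and was called in R1 (0.30, adjusted p = 0.0625) only without R1 replicate 2 (0.44, adjusted p = 0.00158) or under either form of total scaling. HNRNPAB, which binds RNA and single-stranded DNA, had 439.7, 306, 531 and 477 in R1, 372, 375, 456 and 472 in R2 and 319, 319, 267 and 283 in the control group. It rose in R1 (0.54, SE 0.15, adjusted p = 0.0116) and in R2 (0.49, SE 0.15, adjusted p = 0.0280) against the same control libraries, and the R2 call did not hold without R2 replicate 3, R2 replicate 4, control replicate 3 or control replicate 4, where adjusted p-values ran from 0.0688 to 0.0801.

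The H/F group, which binds runs of G and acts as enhancer or silencer according to position, fell together in R1. HNRNPH3 had 131, 104, 141 and 129 normalised reads in R1, 183, 179, 204 and 235 in R2 and 225, 236, 209.6 and 219.7 in the control group. HNRNPH1 had 301, 207, 317 and 326 in R1, 466, 478, 444 and 494 in R2 and 475, 442, 375 and 395 in the control group. For both genes every R1 library was below every other library, with a log2 fold change against the control group of −0.82 (SE 0.11, adjusted p = 5.77e-05) for HNRNPH3 and −0.57 (SE 0.14, adjusted p = 0.00419) for HNRNPH1. HNRNPH2, on the X chromosome, averaged 47.5 ± 5.59 in R1, 68.3 ± 4.57 in R2 and 62.9 ± 3.60 in the control group (SD, n = 4 each) and fell in R1 (−0.41, adjusted p = 0.00499). HNRNPF averaged 289.7 ± 29.1 in R1, 366 ± 10.3 in R2 and 354 ± 32.0 in the control group and fell in R1 (−0.29, adjusted p = 0.0298), which did not hold in 4 of 12 fits that left out 1 library (adjusted p of up to 0.0932, without control replicate 1). None of the 4 was called in R2 against the control group, where limma gave adjusted p-values of 0.328 to 0.737 and edgeR called 0 HNRNP rows fallen.

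The U group binds scaffold-attached DNA and chromatin-associated RNA. HNRNPUL1 had 490.4, 355, 400.3 and 435 normalised reads in R1, 770.2, 693, 705 and 833 in R2 and 748, 744, 681 and 679 in the control group. All R1 libraries were below all others, and HNRNPUL1 was 1.70-fold lower in R1 than in the control group (−0.77, SE 0.11, adjusted p = 0.000102) and 1.79-fold lower in R1 than in R2 (−0.84, SE 0.11, adjusted p = 4.71e-05). HNRNPU averaged 448 ± 65.8 in R1, 711 ± 33.9 in R2 and 643 ± 79.0 in the control group (SD, n = 4 each) and fell in R1 (−0.52, adjusted p = 0.00365), and the antisense row HNRNPU-AS1 was called fallen in R1 too. HNRNPUL2 was lower in R1 than in R2 (−0.38, adjusted p = 0.0195, and 0.0539 without R2 replicate 2). It was not called against the control group in R1 (−0.12, adjusted p = 0.433) or in R2 (0.26, adjusted p = 0.132). With only R2 and control libraries in the fit it was called risen in R2 (adjusted p = 0.0375). Reads of HNRNPU and HNRNPU-AS1 cannot be told apart where they overlap, since the counting was not stated to use strand.

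Among the rest, HNRNPC, a protein that binds runs of U and shields cryptic exons, averaged 553 ± 77.4 in R1, 842 ± 122 in R2 and 857 ± 5.29 in the control group (SD, n = 4 each) and fell in R1 (−0.64, adjusted p = 0.00108). HNRNPR, which is close to SYNCRIP, averaged 208 ± 43.0, 299.7 ± 39.5 and 287 ± 19.7 in the same groups and fell in R1 (−0.49, adjusted p = 0.0148). HNRNPD, also called AUF1, which binds AU-rich elements, averaged 308 ± 81.5 in R1, 365 ± 40.5 in R2 and 421 ± 16.5 in the control group and fell in R1 (−0.49, adjusted p = 0.0275). That fall was −0.29 without R1 replicate 2 (adjusted p = 0.0460), and the call was lost without control replicate 1, 2 or 4 (adjusted p of up to 0.0609). HNRNPDL, its relative, averaged 226 ± 75.6 in R1, 223 ± 12.6 in R2 and 311 ± 24.8 in the control group. HNRNPDL fell in R1 (−0.53, adjusted p = 0.0434), a call lost in 10 of 12 fits that left out 1 library (adjusted p of up to 0.0958, without control replicate 1), and without R1 replicate 2 the difference was −0.28 (adjusted p = 0.0776). All its R2 libraries were below the control libraries (−0.48, adjusted p = 0.0866), and that difference was called without R1 replicate 2 (adjusted p = 0.00519). HNRNPK, which binds runs of C, had 769, 571, 802 and 815 in R1, 704, 701, 713 and 721 in R2 and 729, 695, 644 and 679.6 in the control group, and was not called in any comparison (R1 minus control 0.09, SE 0.12; R2 minus control 0.05, SE 0.12). HNRNPA0, HNRNPA1L2, HNRNPL, HNRNPLL and HNRNPM were not called in any comparison either. Without R1 replicate 2, HNRNPA0 (0.35), HNRNPLL (0.29) and HNRNPM (0.43) were called risen in R1 against the control group (adjusted p = 0.0215, 0.0246 and 0.00527).

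**Figure D5:**
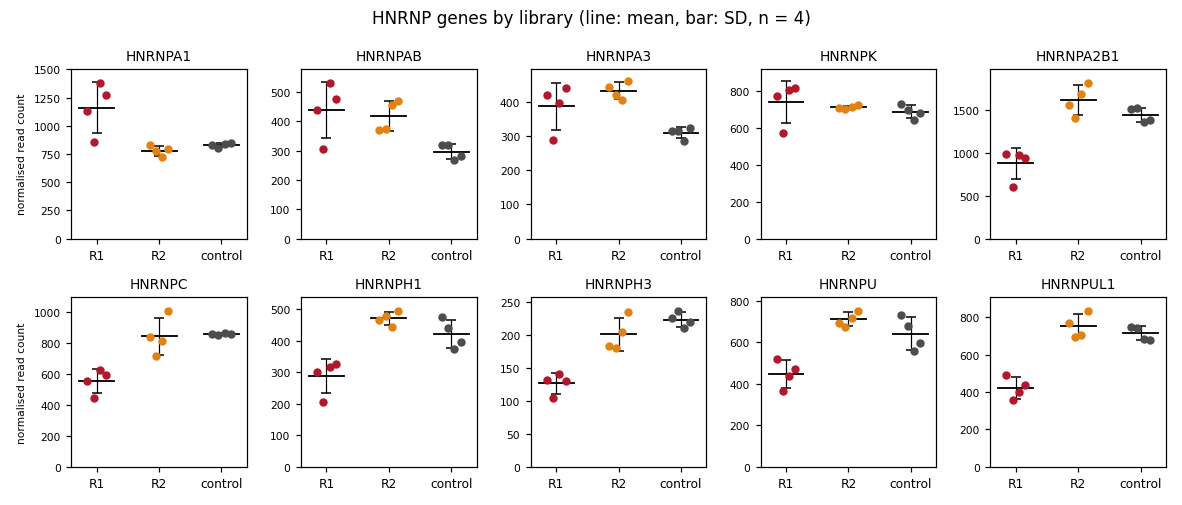
Normalised read counts of 10 HNRNP genes in each library of R1, R2 and control, with the mean as a line and the SD as a bar (n = 4 each). HNRNPA1 stands higher in R1, HNRNPA2B1, HNRNPC, HNRNPH1, HNRNPH3, HNRNPU and HNRNPUL1 stand lower in R1, HNRNPA3 stands higher in R2 than in control, and HNRNPK overlaps between the groups.

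The pseudogene rows had low values, with every group mean under 6, and their reads may belong to the parent genes, whose sequence is close. HNRNPA1P48 was called risen in R1 like HNRNPA1, HNRNPCP2 was called fallen in R1 like HNRNPC (adjusted p = 0.0290, and up to 0.0947 without R1 replicate 4, control replicate 1 or control replicate 4), SNRPGP10 was called fallen in R1 while SNRPG rose, and HNRNPCP1 was called risen in R2 while HNRNPC was not called. How reads with several matches were counted is not given in the sources used here. This also touches gene pairs with near-identical stretches such as HNRNPH1 and HNRNPH2, HNRNPA1 and HNRNPA1L2, SNRPB and SNRPN, and SRSF2 and SRSF8.

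Splicing genes outside the 4 symbol families were taken from 12 lists of 166 genes, of which 156 were measured. In R1 against the control group 54 of the 156 (34.6%) fell and 18 (11.5%) rose, with a median log2 fold change of −0.18, against the background of 21.4% and 22.4%. In R2 against the control group 11 (7.05%) fell and 12 (7.69%) rose. Between R1 and R2, 57 (36.5%) were lower and 24 (15.4%) higher in R1. SR-like and SR-related proteins had 8 of 12 fallen and 0 risen in R1 against the control group. SRRM2, a large scaffold of nuclear speckles, averaged 497 ± 102 in R1, 961 ± 92.6 in R2 and 925 ± 88.5 in the control group (SD, n = 4 each; R1 minus control −0.92, SE 0.15, adjusted p = 0.000186). SREK1, a regulatory SR-related protein, averaged 34.6 ± 5.59 in R1, 75.2 ± 6.90 in R2 and 59.3 ± 3.41 in the control group and was lower in R1 than in R2 (−1.12, SE 0.12, adjusted p = 5.30e-06).

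The partners of the member complexes were counted list by list in R1 against the control group. Over all rows 21.4% fell and 22.4% rose in that comparison, and no list was tested against these shares. Of 6 U1 accessory proteins 3 fell and 0 rose, with SNRNP70, the U1 70K protein that sits beside the products of SNRPA and SNRPC, at 176 ± 24.1 in R1, 299 ± 25.9 in R2 and 264 ± 15.7 in the control group (SD, n = 4 each; R1 minus control −0.59, SE 0.11, adjusted p = 0.000566). Of 11 U2AF and branch point genes, which act beside SF3A and SF3B, 5 fell and 0 rose, with U2AF1L4 at 1.56 ± 0.349 in R1, 4.19 ± 0.759 in R2 and 4.51 ± 0.182 in the control group. Of 16 genes of the U5 and U4/U6 tri-snRNP 4 fell and 1 rose. PRPF8, the core of the catalytic U5 snRNP, averaged 336 ± 38.5 in R1, 408 ± 14.8 in R2 and 641 ± 84.0 in the control group and fell in R1 (−0.93, SE 0.11, adjusted p = 2.07e-05) and in R2 (−0.64, SE 0.11, adjusted p = 0.000751) against the same control libraries. Of the hnRNP proteins under other symbols 2 of 10 rose and 2 fell in R1, and PCBP2, a poly-C binding relative of HNRNPK, was the largest, at 151 ± 39.2 in R1, 77.8 ± 1.94 in R2 and 75.9 ± 6.66 in the control group (R1 minus control 0.95, SE 0.15, adjusted p = 0.000137). SMN complex genes, which load the Sm ring onto snRNAs, had 6 of 14 fallen and 2 risen, and LSM genes 2 fallen and 2 risen of 10. Of 24 genes of the Prp19 complex and the catalytic steps 10 fell and 5 rose, of 15 exon junction complex and nonsense-mediated decay genes 5 fell and 4 rose, and of 7 SR protein kinases 1 fell and 1 rose. Among regulators of alternative exons 8 of 24 fell and 1 rose, with CELF2 at 2.04 ± 0.612 in R1, 4.06 ± 1.82 in R2 and 6.82 ± 0.656 in the control group (R1 minus control −1.56, SE 0.27, adjusted p = 0.000322). Of 7 minor spliceosome genes limma and edgeR called 0 in R1 against the control group, with 1 lower at an unadjusted p under 0.05. For the SR-like, U1 and U2AF lists the counts of risen genes were also 0 by edgeR and 0 at an unadjusted p under 0.05.

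RefSeq promoter windows (GRCh38.p14, 250 bases before each listed start) were found for 49 member genes, and 7 motifs were searched on both strands after the values were seen. The ETS-family core CCGGAAGT is known as a binding sequence of ETS factors. It was present in the first listed window of 12 of the 49 genes (24.5%). The shares were 7.60% of 9317 tested genes and 3.64% of all 27305 genes with a window. By call in R1 against the control group this core was in 2 of 7 risen, 5 of 19 fallen and 5 of 23 uncalled genes. Sites of the 2 risen genes and of the 2 genes with the largest falls in the SF3A/SF3B family are shown from 5′ to 3′ on the strand of the gene, with the core in capitals.
SNRPE, chr1:203861597-203861623: ttctttattCCGGAAGTtgctctcaga
SNRPB, chr20:2470813-2470840: gtgagctggaCCGGAAGTaggtttctac
SF3B4, chr1:149927812-149927839: cgtcttcgccCCGGAAGTggaagtcgtg
SF3A2, chr19:2236805-2236832: ctcatttgccCCGGAAGTgctttctttg

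These sites describe letters in a window and not binding. Most of the member windows overlapped an exon of their own gene, among them those of SNRPE, SNRPB, SF3B4 and SF3A2. The ETS cores of SNRPE, SNRPB, SF3B4 and SF3A2 lie inside the GENCODE v29 bounds of these genes. They are therefore before a listed RefSeq start, but not upstream of the whole gene. The other motifs were GGGCGG (GC box, 61.2% of member genes and 68.0% of tested genes), CCAAT (40.8% and 35.7%), the E-box CACGTG (14.3% and 9.20%), GCGCATGC (NRF1, 4.08% and 4.93%), AAGATGGC (YY1, 2.04% and 1.91%) and TGACGTCA (cAMP response element, 0% and 2.94%), each counted in the first listed window of a gene. No motif contains the letters of another, and each was counted separately where a window held several.

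The tested genes within 1 Mb of a member on each side were counted after the values were seen. The members given here are examples, in which the neighbours moved with the member or against it. Over all rows 21.4% fell and 22.4% rose in R1 against the control group, and 14.8% and 13.6% in R2. Around SF3B4, on chromosome 1 at 149923317 to 149928344, 16 of 27 neighbours fell and 3 rose in R1 against the control group (median −0.47), and SF3B4 itself fell by 1.005 on the log2 scale. Around SNRPE, on chromosome 1 at 203861603 to 203870550, 8 of 16 neighbours rose and 1 fell (median 0.27), while SNRPE rose by 1.58. Around SF3A2, on chromosome 19, 16 of 49 neighbours rose and 5 fell (median 0.16), the opposite direction to that of SF3A2. SNRPD2 rose by 0.45, while 17 of its 42 neighbours fell and 6 rose. HNRNPC fell by 0.64, while 5 of 17 neighbours rose and 1 fell. HNRNPH1 fell by 0.57, while 3 of 14 neighbours rose and 0 fell. Around SNRPA1, 4 of 6 neighbours fell and 0 rose in R2 against the control group (median −0.62). What the neighbouring genes share was not tested.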

How the data were processed

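Per the labels' protocols, RNA was isolated on Qiagen RNeasy columns, and TruSeq v2 kits served for library preparation. The submitters' processing notes name STAR, edgeR and GRCh38, without a version for either tool. The deposited files give 12931 rows, with 12929 distinct symbols, and a signal value each, normalised by the authors to library size. The values summed to 941434 to 1086062 per library. Scaling the recovered reads with edgeR's TMM factors gave the same counts over all rows as the values themselves (2900 risen and 2767 fallen in R1 minus control). Scaling to total reads gave 3345 and 2222, so the values were not scaled to total reads alone. All values (100%) were whole multiples of 1 step per library within 0.001 reads, so reads were recovered by division. Intervals on few reads and the bounds from 3 reads cover counting error only.

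Groups were compared with limma 3.58.1 (R 4.3.3, mean-variance trend, two-sided, Benjamini-Hochberg over 12931 rows) on log2(value + 0.5), with all 12 libraries in 1 fit, and the method was tested on simulated data. The added 0.5 makes fold changes of low values smaller. Alternatives were edgeR 4.0.16 on the recovered reads, other scalings (DESeq2 1.42.0 size factors among them), pseudocounts of 0.1 and 2, a mean value of at least 5, and each library left out. Values in every library are given for 10 fixed genes and for the called members with the largest changes, up to 3 per family, direction and comparison, where the higher group's mean reached 5. The members and lists were chosen with earlier results of these data known. Of the 58 symbols, 57 matched GENCODE v29, and sequences are from RefSeq. Same-numbered R1 and R2 libraries deviated together (correlations of 0.115 to 0.205, over 0.1 in 4 of 4 pairs), although the labels state no pairing, so R1 minus R2 was also fitted with the replicate number as a block. Of the same-numbered pairs of R1 or R2 with control, 2 of 8 were over 0.1. These were R1 and control replicates 1 (0.430) and 3 (0.149), and the other pairs ran from −0.359 to 0.0781. Correlations between differently numbered libraries were not computed, so a pairing was not tested. No 2 replicates of a group agreed within sampling noise (chi-square per degree of freedom 11.3 to 114).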

Additional observations from a re-analysis of the deposited data

Results flagged for a closer look

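In 4 of the 96 groups of 4 libraries examined (32 named members in 3 groups), 1 library lay far from the other 3, with a gap to its nearest neighbour above the critical value of Dixon's test. Chance gives about 1 in 20 such groups. HNRNPA2B1 had 607 normalised reads in R1 replicate 2, while the other R1 libraries held 944 to 983. SF3A2 had 148 in R1 replicate 3, against 121 to 124 in the other R1 libraries. SNRPA1 had 71.9 in control replicate 2, against 74.6 to 75.1 in the other control libraries. SNRPD1 had 129.8 in control replicate 4, against 123 to 124 in the other control libraries. The calls for these genes in R1 or R2 kept their direction without the library concerned.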

How the results depend on the processing

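Of 47 called changes of named members, 37 kept their call under the 23 alternatives that refitted them (22 for SNRPN, left out at a mean under 5, which leaves 1 SNRP row fallen in R2), and 0 changed direction. The 10 others lost the call under some alternative, as given beside the left-out libraries in the results. Under other settings, calls were lost with total scaling (SRSF10 and SRSF11 in R1, SRSF5 in R2, SNRPC in R1 minus R2), edgeR (SNRPC), no mean-variance trend (SRSF5, and SNRPC and SF3B6 in R1 minus R2) and only the 2 groups compared (SF3B5 in R1, SNRPC and SF3B6). Outside the named members, HNRNPDL and HNRNPF in R1 were lost under both total scalings and with only 2 groups, and HNRNPDL also with edgeR and without the trend. Requiring a 1.5-fold change left 12 called in R1 against the control group (2 risen, 10 fallen), 3 in R2 (1 risen, 2 fallen) and 19 in R1 against R2 (5 risen, 14 fallen). An adjusted p under 0.01 left 16 in R1 against the control group (3 risen, 13 fallen). Over all 12931 rows the 1.5-fold change left 1777 risen and 1671 fallen in R1 against the control group and 950 and 1333 in R2. In R1 against R2 it left 1946 and 1726, and the stricter p left 1956 and 1866 in R1 against the control group. In that comparison the share of members called was below that of all rows under both settings, while the fallen share stayed above it. With 1 library left out, 7 to 15 members rose in R1 against the control group, the highest without R1 replicate 2. Of 49 uncalled changes, 11 were called under some alternative, each given in the results, and 10 turned sign. SRSF3 in R1 against the control group was 0.012 with edgeR, 0.057 with total scaling, 0.030 with that scaling without mitochondrial and ribosomal protein genes, and −0.11 to 0.18 with 1 library left out. SRSF5 was 0.0085 with total scaling. With 1 library left out SRSF2 ranged over −0.32 to 0.025 in R1 and −0.0079 to 0.16 in R2, SNRPA over −0.089 to 0.017 and SNRPE over −0.18 to 0.013 in R2. For R1 minus R2, HNRNPAB ranged over −0.057 to 0.21, HNRNPK over −0.0080 to 0.16, SF3B1 over −0.020 to 0.20 and SRSF3 over −0.19 to 0.10. The cause was not tested. The replicate number as a block (replicate block) gave 10 risen and 22 fallen in R1 against the control group, 3 and 5 in R2, and 10 and 21 in R1 against R2. Beside SNRPC, it changed no call of a member between R1 and R2. Same-numbered libraries of R1 or R2 and control had correlations of either sign. Against the control group the block called SRSF4 in R2 (adjusted p = 0.0254) and SNRPN in R1 (adjusted p = 0.0494) and not HNRNPDL in R1 (adjusted p = 0.0513). Total scaling moved the median of all genes to 0.09 in R1 minus control. The fitted change of SNRPN in R2 ran from −8.24 to −0.76 with the pseudocount and tool. Members under a mean of 6, among them SNRPN, rest on few reads.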
